A study of Mus musculus with 12 samples.

Results

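The 10 genes described here restrain or build the growth kinase mTOR, and they were followed across 12 RNA sequencing libraries of cultured mouse paw fibroblasts. They were taken by symbol from the 55413 Ensembl genes of the deposited table for their known roles, by a rule that uses no measured value, although earlier results of these data were known when the rule was written. All 10 were found and all 10 were among the 16459 genes tested. They comprise 7 restraints (Sesn1, Sesn2, Sesn3, Ddit4, Deptor, Tsc1 and Tsc2) and 3 core genes (Mtor, Rptor and Rictor). The cells, labelled as synovial fibroblasts, were released with collagenase from the paws of inbred BALB/c mice, and every group had received monosodium urate (MSU) crystals, the crystals of gout, in the paw. The 4 groups of 3 libraries were non-primed paws of mice on vehicle (right paw, crystals on day 9), primed paws of mice on vehicle (left paw, crystals on days 0 and 9), primed paws of mice injected intraperitoneally every day with 20 mg/kg of I-BET, beginning 1 day ahead of the earlier crystals (in vivo), and cells from primed paws exposed to 1 µM I-BET for 24 h in culture (in vitro). The series title names the agent as I-BET151, an inhibitor of the BET bromodomain proteins that read acetylated histones. RNA was extracted on day 18 by the labels, after 5 passages of cells pooled from 2 to 3 paws. Side of the body and priming cannot be told apart, the age of the mice is not stated, and the labels do not say whether the in vitro cells came from vehicle-injected mice. The labels do not tie libraries to animals, so p-values measure the spread between these pooled cultures.

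mTOR is a kinase that drives protein synthesis and cell growth when nutrients and growth factors are present, and it works in 2 complexes, mTORC1 with raptor (Rptor) and mTORC2 with rictor (Rictor). Sestrins are stress-induced proteins that hold mTORC1 back, mainly by acting on the GATOR complexes that carry the amino acid signal. The TSC complex (Tsc1 and Tsc2) switches off the small GTPase Rheb, which activates mTORC1, and Ddit4 (REDD1) acts through TSC in hypoxia and other stress, while Deptor binds mTOR itself.

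Some libraries stood apart from the rest, and this touches most values below. The mean of 15 melanocyte markers lay between 12.4 and 14.0 in the 3 non-primed libraries and in vivo libraries 2 and 3, and between 5.22 and 6.45 in the other 7. The mean of 10 fibroblast markers was 7.54 to 11.6 in those 5 libraries and 14.4 to 15.4 in the other 7, and that of 10 proliferation markers was 13.7 to 14.0 against 11.1 to 11.8. The defining melanocyte gene Tyrp1 was at 17.4 to 18.6 in the 5 and at 3.98 to 6.10 in the 7. The 5 thus carried defining melanocyte transcripts and a lower fibroblast marker mean than the 7. Of the 15 melanocyte markers Ednrb went the other way, at 3.28 to 5.31 in the 5 and 5.80 to 9.35 in the 7. Sox10 and Mitf still stood at 10.2 to 13.4 and 10.3 to 12.7 in the 7. The fibroblast marker Fbln1 was not lower in the 5 (12.09 to 13.79) than in the 7 (11.75 to 12.67). These sets are called melanocyte-rich and fibroblast-rich here. Macrophage marker means were 3.28 to 6.14 in the melanocyte-rich and 7.48 to 9.57 in the fibroblast-rich libraries. The library labelled non-primed 3 correlated across genes more closely with in vivo libraries 2 and 3 (0.980 and 0.983) than with non-primed 1 and 2 (0.956 and 0.948). Its value lay nearer to the former pair in 82.9% of tested genes and in 9 of the 10 members. Its level of Hexim1, a gene that commonly rises under BET inhibitors, was 14.3, where non-primed 1 and 2 stood at 12.2 and 12.3 and the 6 I-BET libraries at 13.9 to 14.2. The labels were kept for all libraries and whether that of this library is right was not tested. Without it the falls with priming were -1.41 for Sesn1, -1.34 for Sesn3, -3.56 for Deptor and -1.25 for Rictor, and all 4 passed (adjusted p 0.00197 to 0.00446, limma). Whether the melanocyte transcripts came with other cells in the cultures was not tested. In vivo library 1 lay nearer to the in vitro libraries than to in vivo 2 and 3 in 85% of tested genes. In bulk RNA, fewer cells of a type and less RNA per cell cannot be told apart.

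**Figure D1:**
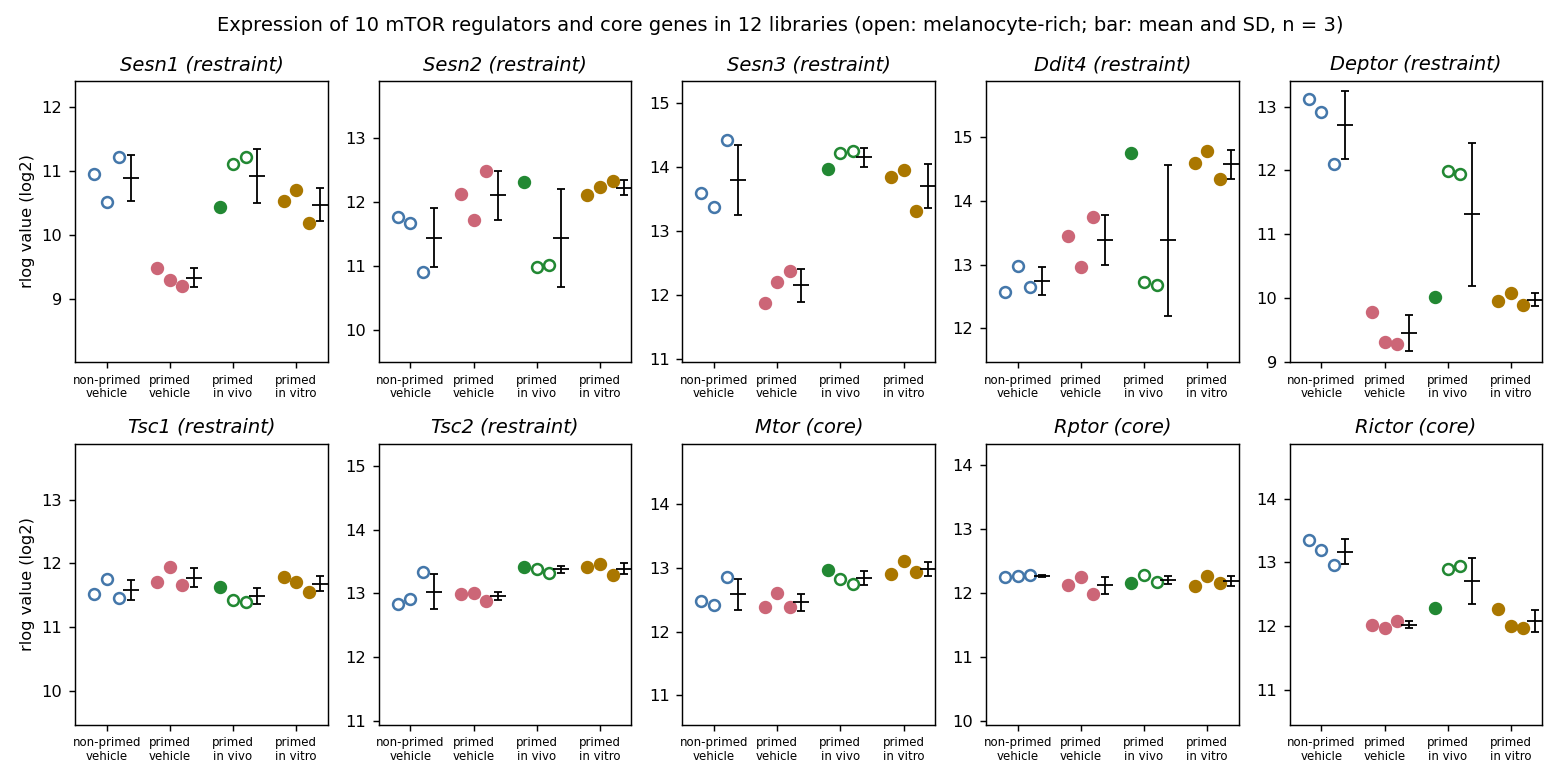
Regularized log2 (rlog) value of each gene in every library, by group, with the group mean and SD (n = 3) beside the points. Open points are melanocyte-rich libraries, and each panel spans the same range of log2 units. Sesn1 and Sesn3 are lowest in the 3 primed vehicle libraries, Deptor and Rictor are high in the open points, and Rptor lies within 0.30 log2 units in all 12 libraries.

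Among the sestrins, Sesn1 and Sesn3 were lower in primed vehicle cultures than in every other library, and both rose with I-BET given by either route. Sesn2 passed none of the 5 comparisons in the fit of all 12 libraries. All values are rlog values, which are on a log2 scale and are not corrected for gene length, so levels are compared only within a gene.

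Sesn1 (ENSMUSG00000038332, chromosome 10, 41809935 to 41908424, plus strand, GRCm38), a p53-inducible sestrin, stood at 10.96, 10.52 and 11.22 in the non-primed libraries and at 9.49, 9.30 and 9.20 in the primed vehicle libraries. It stood at 10.45, 11.12 and 11.22 in vivo and at 10.53, 10.70 and 10.19 in vitro. No primed vehicle library reached the lowest value of any other group. The difference of primed from non-primed was -1.57 ± 0.25 (difference ± SE in log2 units, 3 libraries in each group, adjusted p = 0.00161 by limma). In vivo minus vehicle was 1.60 ± 0.25 (adjusted p = 0.00274, limma) and in vitro minus vehicle 1.14 ± 0.25 (adjusted p = 0.0347, limma), which is 3.03-fold and 2.21-fold on this scale.

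Sesn3 (chromosome 9, 14275067 to 14333101, plus strand), a sestrin under control of FOXO factors, showed the same order of groups. It stood at 13.60, 13.38 and 14.42 in the non-primed, 11.87, 12.19 and 12.38 in the primed vehicle, 13.98, 14.22 and 14.26 in the in vivo and 13.84, 13.95 and 13.32 in the in vitro libraries. The highest non-primed value belonged to the library labelled non-primed 3. Primed minus non-primed was -1.65 ± 0.27 (adjusted p = 0.00171, limma), in vivo minus vehicle 2.00 ± 0.27 (adjusted p = 0.00174, limma) and in vitro minus vehicle 1.55 ± 0.27 (adjusted p = 0.0177, limma). Its group means, in falling order, were 14.15 ± 0.15 in vivo, 13.80 ± 0.55 non-primed, 13.70 ± 0.34 in vitro and 12.15 ± 0.26 primed vehicle (SD, n = 3). Neighbours among the 3 upper groups did not differ beyond their spread.

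The differences of Sesn1 and Sesn3 were then read where melanocyte transcripts were low. In vivo library 1 alone, against the primed vehicle libraries in a fit of only the 7 fibroblast-rich libraries, gave 1.11 for Sesn1 and 1.83 for Sesn3. That library is a group of 1 in this fit, which was chosen after seeing the data. Its own spread could not be measured, so its differences are not read as calls. When the non-primed libraries stayed in the fit and only in vivo 2 and 3 were left out, the same differences did not pass. In the fit of the 7 fibroblast-rich libraries the in vitro differences were 1.14 ± 0.16 for Sesn1 and 1.55 ± 0.20 for Sesn3. These errors were smaller than the 0.25 and 0.27 found with all 12 libraries. With all 12 libraries the in vitro calls were less firm. Leaving out any of primed vehicle 1, 2 or 3 or in vitro 1 or 2 ended both calls (adjusted p 0.0731 to 0.152 for Sesn1 and 0.0564 to 0.0948 for Sesn3), with differences of 1.03 to 1.22 and 1.42 to 1.67.

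Sesn2 (chromosome 4, 132492032 to 132510501, minus strand), a sestrin induced by the stress factor ATF4 that senses leucine, stood at 11.76, 11.66 and 10.91 in the non-primed and 12.12, 11.71 and 12.48 in the primed vehicle libraries. It stood at 12.32, 10.98 and 11.01 in vivo and at 12.11, 12.24 and 12.33 in vitro. In vivo library 1 thus lay among the vehicle and in vitro values, while in vivo 2 and 3 lay next to the library labelled non-primed 3. Its differences were 0.66 ± 0.36 for primed minus non-primed, -0.67 ± 0.36 for in vivo minus vehicle and 0.12 ± 0.36 for in vitro minus vehicle (adjusted p 0.149, 0.156 and 0.884, limma). The 95% interval of the in vitro difference ran from -0.69 to 0.93. In the fit of the 7 fibroblast-rich libraries the in vivo difference, from in vivo library 1 alone, was 0.22, with the opposite sign. Sesn2 was lower in vivo by -1.11 (adjusted p = 0.00553, limma) without in vivo library 1, when both remaining treated libraries were melanocyte-rich.

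The stretches before the start sites of Sesn1, Sesn3 and Ddit4 are shown because these restraints had the 3 largest in vitro differences among the members. Each is 250 bases from RefSeq (GRCm38.p6), 5′ to 3′ on the gene's strand, ending at the base before the start site. Capitals mark matches, on either strand, to 5 motifs that were searched. These were TGATGNAA (ATF4 with C/EBP), CACGTG (E-box), ACGTG (the hypoxia element core, contained in CACGTG), the NF-kB site and the p53 half-site, found in 3.45%, 6.02%, 16.57%, 7.25% and 7.13% of the 32851 RefSeq windows of this length. Sesn1 has a pair of start sites in RefSeq, and the window with a match is printed (chr10:41887189-41887438, plus strand). The Sesn3 window is chr9:14276051-14276300 (plus strand) and that of Ddit4 is chr10:59951771-59952020 (minus strand).
Sesn1: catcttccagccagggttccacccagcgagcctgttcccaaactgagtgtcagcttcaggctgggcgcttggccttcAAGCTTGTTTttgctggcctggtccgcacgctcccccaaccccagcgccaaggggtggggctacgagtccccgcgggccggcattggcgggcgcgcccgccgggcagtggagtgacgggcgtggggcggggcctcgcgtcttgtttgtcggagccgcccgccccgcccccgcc
Sesn3: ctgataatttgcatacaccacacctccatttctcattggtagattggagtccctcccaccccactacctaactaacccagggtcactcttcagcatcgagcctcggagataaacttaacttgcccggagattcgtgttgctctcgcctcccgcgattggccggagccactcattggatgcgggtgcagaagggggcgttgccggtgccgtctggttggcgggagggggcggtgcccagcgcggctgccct
Ddit4: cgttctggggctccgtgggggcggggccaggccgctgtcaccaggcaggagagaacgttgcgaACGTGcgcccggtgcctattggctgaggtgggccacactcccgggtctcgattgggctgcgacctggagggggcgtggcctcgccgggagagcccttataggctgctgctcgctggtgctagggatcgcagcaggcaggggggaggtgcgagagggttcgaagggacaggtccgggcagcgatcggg
A p53 half-site starts at base -173 of the printed Sesn1 window, the Ddit4 window holds ACGTG at base -187, and the Sesn3 window holds none of the 5. These are matches of letters, and none of the libraries measured binding there.

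Ddit4, the hypoxia and stress induced activator of TSC, was highest in the 4 I-BET treated fibroblast-rich libraries. Ddit4 (chromosome 10, 59949669 to 59951834, minus strand) stood at 12.57, 12.98 and 12.66 in the non-primed and 13.45, 12.96 and 13.74 in the primed vehicle libraries. It stood at 14.74, 12.72 and 12.67 in vivo and at 14.58, 14.78 and 14.34 in vitro. In vivo library 1 sat with the in vitro libraries, and in vivo 2 and 3 sat with the non-primed ones. Over all 12 libraries in vitro minus vehicle was 1.18 ± 0.47 (adjusted p = 0.159, limma) and in vivo minus vehicle -0.01 ± 0.47 (adjusted p = 0.994, limma), with an SD of 1.18 among the in vivo libraries. In the 7 fibroblast-rich libraries the in vitro difference was 1.18 ± 0.21 (adjusted p = 0.00782, limma) and that of in vivo library 1, a group of 1, was 1.36. With the non-primed libraries kept in the fit the latter did not pass. Without in vivo library 1, Ddit4 was called lower in vivo than in vehicle, at -0.69 (adjusted p = 0.0219, limma).

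Deptor, which binds mTOR and inhibits both complexes, had the widest range of the 10 genes, 3.84 log2 units over the libraries, and this range ran along the melanocyte split. Deptor (chromosome 15, 55112317 to 55259271, plus strand) stood at 13.12, 12.91 and 12.11 in the non-primed and 9.78, 9.31 and 9.28 in the primed vehicle libraries. It stood at 10.02, 11.98 and 11.94 in vivo and at 9.95, 10.08 and 9.88 in vitro. All 5 melanocyte-rich libraries, from 11.94 to 13.12, were above all 7 others, from 9.28 to 10.08. Deptor fell with priming, by -3.26 ± 0.47 (adjusted p = 0.00124, limma), and rose in vivo, by 1.86 ± 0.47 (adjusted p = 0.0144, limma). The in vivo difference, from in vivo library 1 alone, was 0.56 in the 7 fibroblast-rich libraries. Leaving primed vehicle 3, in vivo 2 or in vivo 3 out of the fit of all libraries gave 1.77, 1.52 and 1.54 (adjusted p = 0.0501, 0.0631 and 0.0641, limma). In vitro minus vehicle was 0.51 ± 0.47 (adjusted p = 0.559, limma), although each in vitro library was above each vehicle library. Over the 12 libraries Deptor correlated at 0.96 with the melanocyte marker mean, 0.96 with the proliferation marker mean and -0.85 with the fibroblast marker mean. The part of the melanocyte transcripts or of proliferation in these differences was not tested, and every non-primed library was high in both.

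**Figure D2:**
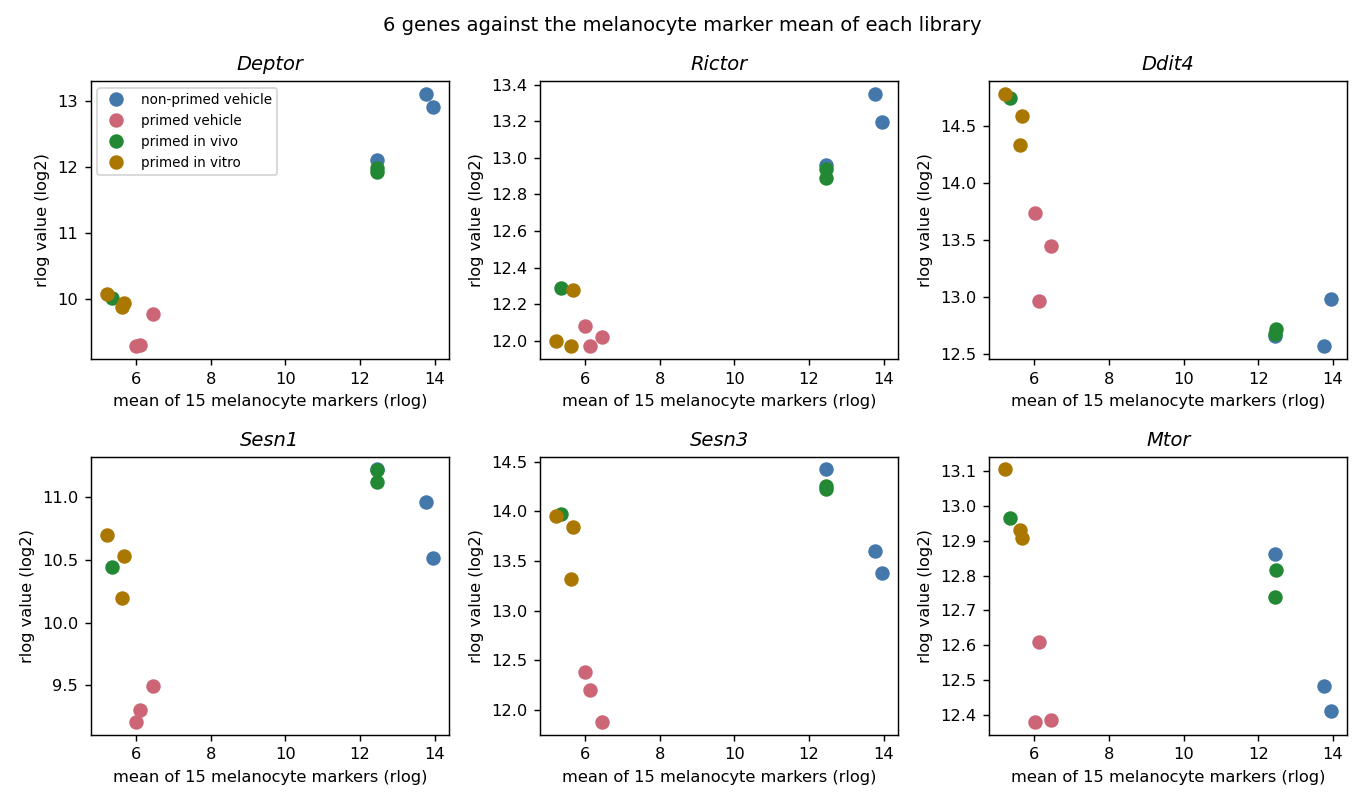
Rlog value of 6 genes (vertical axes) against the mean rlog of 15 melanocyte markers in the same library (horizontal axes), coloured by group, 1 point per library. Deptor and Rictor lie higher in the 5 melanocyte-rich libraries. Within the fibroblast-rich libraries at the left, all genes but Rictor lie higher in the 4 I-BET treated libraries than in the 3 vehicle libraries.

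The TSC subunits moved little. Tsc2, which carries the GTPase-activating domain of the complex, stood at 12.83, 12.91 and 13.34 in the non-primed, 12.99, 13.00 and 12.88 in the primed vehicle, 13.42, 13.38 and 13.32 in the in vivo and 13.41, 13.46 and 13.29 in the in vitro libraries. The 6 I-BET libraries lay above the 3 primed vehicle libraries, and the library labelled non-primed 3 lay with the I-BET libraries. Tsc2 (chromosome 17, 24595816 to 24632630, minus strand) rose in vivo by 0.42 ± 0.13 (adjusted p = 0.031, limma), and in vitro minus vehicle was 0.43 ± 0.13 (adjusted p = 0.0835, limma). In the 7 fibroblast-rich libraries the in vivo difference, from in vivo library 1 alone, was 0.46. The in vitro difference there was 0.43 ± 0.08 (adjusted p = 0.0103, limma). Leaving out any library other than in vivo 1 ended the in vivo call (adjusted p 0.0636 to 0.093). Tsc2 overlaps Pkd1 on the other strand, and the strand setting of the counting is not given in the sources used here.

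Tsc1 (chromosome 2, 28641228 to 28691167, plus strand), the scaffold subunit that stabilises Tsc2, ranged over 0.55 log2 units in all 12 libraries, from 11.40 to 11.95. Its differences were 0.19 ± 0.13 for primed minus non-primed, -0.29 ± 0.13 for in vivo minus vehicle and -0.09 ± 0.13 for in vitro minus vehicle (adjusted p 0.229, 0.0916 and 0.723, limma). Each in vivo library was below each vehicle library, the vehicle values being 11.71, 11.95 and 11.66 and the in vivo values 11.63, 11.42 and 11.40. Without in vivo library 1 that difference was -0.36 and passed the test (adjusted p = 0.0332, limma).

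Of the core, Mtor itself was higher in all I-BET libraries than in the primed vehicle ones. Mtor (chromosome 4, 148448611 to 148557683, plus strand) stood at 12.48, 12.41 and 12.86 in the non-primed, 12.39, 12.61 and 12.38 in the primed vehicle, 12.97, 12.82 and 12.74 in the in vivo and 12.91, 13.10 and 12.93 in the in vitro libraries. The lowest I-BET value, 12.74, exceeded the highest primed vehicle value, 12.61. Mtor rose in vivo by 0.38 ± 0.14 (adjusted p = 0.0477, limma), or 1.30-fold, and in vitro minus vehicle was 0.52 ± 0.14 (adjusted p = 0.0557, limma), or 1.44-fold. In the 7 fibroblast-rich libraries the in vivo difference, from in vivo library 1 alone, was 0.51. The in vitro difference there was 0.52 ± 0.10 (adjusted p = 0.0102, limma). Leaving out any of the 6 libraries compared ended the in vivo call in the fit of all libraries (adjusted p 0.0566 to 0.13). Its profile over the 12 libraries was close to that of Tsc2, with a Pearson correlation of 0.93.

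Rictor, the subunit that defines mTORC2, followed Deptor, with a correlation of 0.98 over the 12 libraries. It stood at 13.35, 13.20 and 12.96 in the non-primed, 12.02, 11.97 and 12.08 in the primed vehicle, 12.29, 12.89 and 12.94 in the in vivo and 12.28, 12.00 and 11.97 in the in vitro libraries. The 5 melanocyte-rich libraries (12.89 to 13.35) lay above the other 7 (11.97 to 12.29). Rictor (chromosome 15, 6708379 to 6800401, plus strand) fell with priming, by -1.15 ± 0.18 (adjusted p = 0.00157, limma), and rose in vivo, by 0.68 ± 0.18 (adjusted p = 0.0163, limma). In vitro minus vehicle was 0.06 ± 0.18 (adjusted p = 0.884, limma). In the 7 fibroblast-rich libraries the in vivo difference, from in vivo library 1 alone, was 0.26. In the fit of all libraries the in vivo call ended without primed vehicle 2 or in vivo 2 or 3 (0.66, 0.59 and 0.57, adjusted p = 0.0513, 0.0709 and 0.0728, limma). Rictor correlated at 0.96 with the melanocyte marker mean, 0.96 with the proliferation marker mean and -0.85 with the fibroblast marker mean. The part of the melanocyte transcripts or of proliferation in these differences was not tested.

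Rptor, the mTORC1 subunit that presents substrates, lay between 11.99 and 12.29 in all libraries. Rptor (chromosome 11, 119602905 to 119899576, plus strand) had differences of -0.14 ± 0.10, 0.08 ± 0.10 and 0.06 ± 0.10 in the same 3 comparisons (adjusted p 0.233, 0.512 and 0.765, limma), and the 95% interval of the in vitro difference ran from -0.16 to 0.28. An antisense gene, Rptoros, overlaps it.

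**Figure D3:**
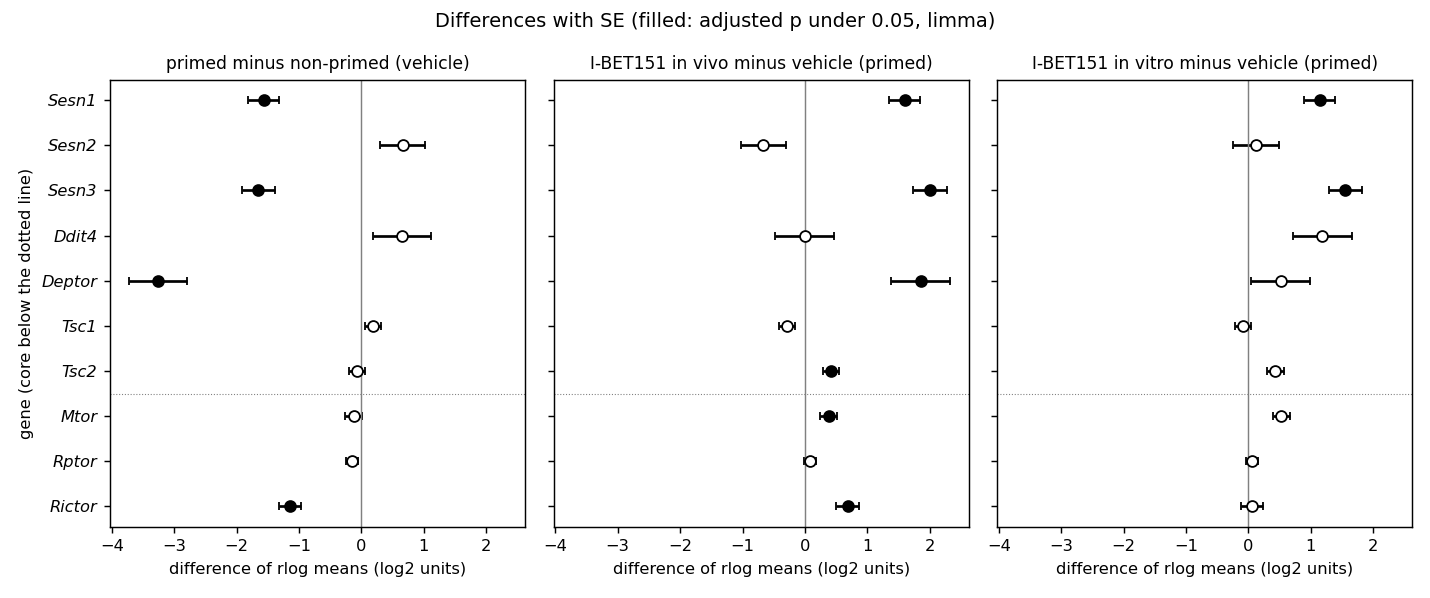
Difference of group means in log2 units (horizontal axis) with its SE, for the 10 genes, in 3 comparisons. Filled points passed an adjusted p of 0.05 in limma. Falls with priming are seen for Sesn1, Sesn3, Deptor and Rictor, and rises of Sesn1 and Sesn3 in both I-BET comparisons, which share the primed vehicle libraries.

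Counted together, 4 of the 10 genes fell with priming and none rose (3 of 7 restraints and 1 of 3 core genes), where 51.8% of all tested genes were called, 28.9% higher and 22.9% lower (34.5% lower after quantile normalization). Groups did not overlap in 4 members, all lower, where this held for 61.7% of all genes (33.7% higher, 28% lower). The members' share was below that of all genes when both directions are counted and above it among the lower ones. With I-BET in vivo 6 rose and none fell (4 restraints and 2 core genes), where 39.7% of all genes were called and 17.9% were higher and 21.8% lower (27.9% higher after quantile normalization). Groups did not overlap in 6 members that were higher and 1, Tsc1, that was lower, against 49.1% of all genes (22.7% higher, 26.4% lower). Leaving out primed vehicle 2 or 3 gave 3 calls in vivo (23.2% and 20.5% of all genes), and leaving out in vivo 2 or 3 gave 2 (15.1% and 14.8%). Leaving out in vivo 1 gave 8, 5 of them higher and 3 lower, where 60.5% of all genes were called, 27% higher and 33.5% lower. Leaving out in vivo 2 and 3 together gave 0, where 1.18% of all genes were called. With I-BET in vitro 2 rose and none fell, both restraints, where 4.51% of all genes were called, 1.76% higher and 2.76% lower. Groups did not overlap in 6 members, all higher, against 48.4% of all genes (22.7% higher, 25.7% lower). Leaving out any of primed vehicle 1 to 3 or in vitro 1 or 2 gave 0 calls, where 0.0729% to 1.48% of all genes were called. With all libraries 5 members had an unadjusted p under 0.05, as did 23.8% of all genes. In the 7 fibroblast-rich libraries 5 genes rose in vitro (Sesn1, Sesn3, Ddit4, Tsc2 and Mtor), where 30.3% of all genes were called, 13.5% higher and 16.8% lower. The same 5 rose in in vivo library 1 against vehicle, where 20.4% were called, 8.68% higher and 11.8% lower, and both comparisons use the same vehicle libraries. An F test over the 4 groups called 7 of the 10, where 58.1% of all genes were called, and missed Sesn2, Tsc1 and Rptor.

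Restraints and core were then set side by side in each library, as the mean of the rlog values of each class after the mean of the 12 libraries had been subtracted from every gene. The restraints stood at -0.49, -0.63 and -0.46 in the primed vehicle libraries and between 0.01 and 0.30 in the other 9. The core stood at -0.29, -0.19 and -0.32 in the primed vehicle libraries, at 0.15 to 0.23 in the melanocyte-rich ones and at -0.11 to 0.00 in the 4 fibroblast-rich I-BET libraries. The gap of restraints over core was lowest in primed vehicle (-0.44 to -0.14), near 0 in the melanocyte-rich libraries (-0.05 to 0.03) and highest in the fibroblast-rich I-BET libraries (0.12 to 0.31). The core mean joins genes that moved apart. In the 4 fibroblast-rich I-BET libraries Mtor (12.91 to 13.10) was above all other libraries. Rictor (11.97 to 12.29) was there below the melanocyte-rich libraries (12.89 to 13.35). Of the restraints Deptor was below them too (9.88 to 10.08 against 11.94 to 13.12). The part of single genes in the gap was not tested. The median difference of the 7 restraints was -0.07 with priming, 0.42 in vivo and 0.51 in vitro, and that of the 3 core genes was -0.14, 0.38 and 0.06. The medians of all tested genes were 0.05, -0.05 and -0.02. No test was made over the members.

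**Figure D4:**
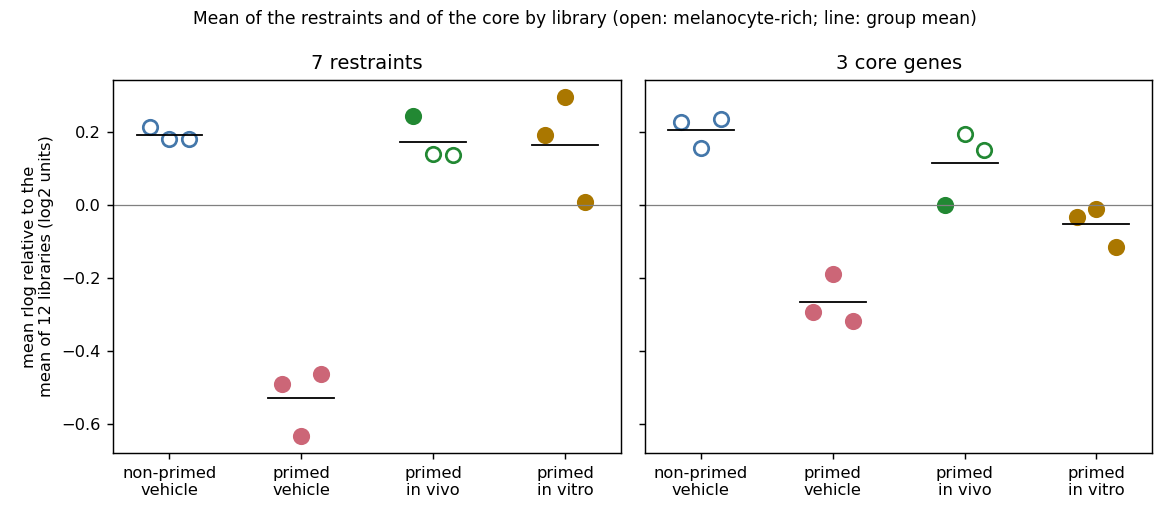
Mean rlog of the 7 restraints (left) and of the 3 core genes (right) in each library, relative to the mean of the 12 libraries, by group, in log2 units. Open points are melanocyte-rich libraries and lines are group means. The 3 primed vehicle libraries are the lowest for both classes.

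In vitro and in vivo I-BET were also compared directly. This cannot separate the 2 routes from the make-up of the cultures. In vivo libraries 2 and 3 were melanocyte-rich, while all in vitro libraries were fibroblast-rich. Dose and length of exposure differed as well, so a lack of calls is not read as likeness of the routes. None of the 10 genes passed in limma (lowest adjusted p = 0.122), and 0 of all tested genes did (0%), although 3 members, Ddit4 (1.19 ± 0.47), Deptor (-1.34 ± 0.47) and Rictor (-0.62 ± 0.18), had an unadjusted p under 0.05, as did 32.5% of all genes. The groups of Sesn3 and Rictor did not overlap, both being lower in vitro, against 22.4% of all genes (11.6% higher, 10.8% lower). Without in vivo library 1, 5 members were called (Sesn1, Sesn2, Ddit4, Deptor and Rictor), where 49.1% of all genes were called. The in vivo libraries left there were melanocyte-rich and all in vitro libraries fibroblast-rich. Against in vivo library 1 alone, in the 7 fibroblast-rich libraries, the differences of the 10 genes lay between -0.27 and 0.05. In vivo treated and non-primed libraries, both mostly melanocyte-rich, differed in none of the members in limma (lowest adjusted p = 0.222) and in 0% of all genes, with 3 members, Deptor, Tsc2 and Rictor, at an unadjusted p under 0.05, as had 20.5% of all genes. Deptor and Rictor, both lower in vivo, did not overlap between these groups, against 17.3% of all genes (8.71% higher, 8.62% lower). Without the library labelled non-primed 3, 3 members passed, with Deptor at -1.70, Tsc2 at 0.50 and Mtor at 0.39 (adjusted p = 0.0484, 0.00841 and 0.0489, limma), where 17.1% of all genes were called, 8.01% higher and 9.08% lower.

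Likeness of profiles was measured by Pearson correlation over the 12 libraries, for the 3 members with the widest range of group means. Deptor was most like Gng7, Pcdhgb2 and Hnrnpul1 (0.993, 0.992 and 0.992), Sesn3 like Fbxo47, Mfsd4b4 and Hlcs (0.987, 0.985 and 0.980), and Ddit4 like Snx22, Pag1 and S100a10 (0.971, 0.970 and 0.966). Sesn1 and Sesn3 correlated at 0.94 with each other, and Sesn1 and Sesn2 at -0.65. These values describe 12 libraries that share the melanocyte split.

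The other genes of the pathway were read from 12 lists, whose counts stand against 28.9% of all genes higher and 22.9% lower with priming, 17.9% higher and 21.8% lower in vivo, and 1.76% higher and 2.76% lower in vitro. In the amino acid arm, through which sestrins act, 6 of 15 genes fell and 2 rose with priming (median -0.22), and 8 rose and 2 fell in vivo (median 0.52). Depdc5, the GATOR1 subunit, fell with priming by -1.11 ± 0.21 (adjusted p = 0.00263, limma), and Kptn, of the KICSTOR scaffold, rose in vivo by 0.88 ± 0.22 (adjusted p = 0.013, limma). Castor1, the arginine sensor that, like sestrins, holds GATOR2 back, went against Sesn1 and Sesn3. It stood at 9.80, 9.57 and 8.23 in the non-primed, 10.91, 10.80 and 11.04 in the primed vehicle, 10.01, 8.52 and 8.43 in the in vivo and 9.90, 9.95 and 10.16 in the in vitro libraries. Castor1 rose with priming by 1.72 ± 0.46 and fell in vivo by -1.93 ± 0.46 (adjusted p = 0.0114 and 0.0119, limma). In vitro 1 of the 15 passed, Sec13, a GATOR2 and coat protein, at -0.43 ± 0.10 (adjusted p = 0.0374, limma), a call that ended with the omission of any library compared. In the 7 fibroblast-rich libraries 3 of the 15 rose and 3 fell in vitro, where 13.5% of all genes rose and 16.8% fell. The median difference of in vivo library 1 alone was 0.27 there.

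Nearer to TSC, Ddit4l, a relative of Ddit4 that also restrains mTORC1, was higher in primed vehicle than in every other library. It stood at 9.27, 10.03 and 8.17 in the non-primed, 12.21, 11.83 and 11.85 in the primed vehicle, 10.62, 8.74 and 8.93 in the in vivo and 10.60, 11.06 and 11.44 in the in vitro libraries. Ddit4l rose with priming by 2.81 ± 0.54 and fell in vivo by -2.53 ± 0.54 (adjusted p = 0.00294 and 0.00815, limma). Rheb, the GTPase that TSC switches off, rose with priming by 0.37 ± 0.10 (adjusted p = 0.0141, limma), and not after median centring (0.23, adjusted p = 0.103). Of this list of 4, 2 rose with priming, 1 fell in vivo and 0 passed in vitro. Among 8 other complex subunits and assembly factors, 2 rose and 1 fell with priming and 2 fell in vivo. Prr5l, an mTORC2 partner, differed by 2.59 ± 0.90 and -2.79 ± 0.90 (adjusted p = 0.0336 and 0.0333, limma), and both calls ended with any primed vehicle library omitted. Akt1s1, the mTORC1 inhibitor PRAS40, fell in vivo by -0.58 ± 0.21 (adjusted p = 0.0491, limma), a call lost in 13 of 17 alternatives. Telo2, a folding factor of mTOR, fell with priming by -1.20 ± 0.30 (adjusted p = 0.00776, limma). Of 12 Rag, Ragulator and folliculin genes, 2 rose and 2 fell with priming, and 2 rose and 3 fell in vivo, with Rraga at 0.57 ± 0.19 and Fnip1 at -0.53 ± 0.15 with priming (adjusted p = 0.0276 and 0.0143, limma). The Rraga call ended without non-primed 1, non-primed 2 or primed vehicle 3 and with median centring (adjusted p 0.0716 to 0.107), and that of Fnip1 without non-primed 1 (adjusted p = 0.0525). In vivo the leading ones were Lamtor3 at -0.73 ± 0.16 and Fnip2 at -0.68 ± 0.16 (adjusted p = 0.00804 and 0.0126, limma).

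Upstream of TSC, 4 of 15 PI3K and AKT genes rose and 3 fell with priming, and 2 rose and 1 fell in vivo. Inpp5d, the phosphatase SHIP1 of blood cells, rose with priming by 3.16 ± 0.98 (adjusted p = 0.0211, limma). That call ended without the library labelled non-primed 3 or primed vehicle 3, with quantile normalization and with array weights (adjusted p 0.0544 to 0.0701). Of 9 macrophage markers tested, 8 rose with priming as well, and their part in the Inpp5d value was not tested. Igf1r, the IGF1 receptor, rose with priming by 1.84 ± 0.52 (adjusted p = 0.0145, limma), and Pdpk1, the kinase that primes AKT, rose in vivo by 1.08 ± 0.23 (adjusted p = 0.00797, limma). Of 8 AMPK genes 3 fell and 1 rose with priming, with the catalytic subunit Prkaa2 at -1.68 ± 0.42 and the regulatory subunit Prkag2 at -0.62 ± 0.17 (adjusted p = 0.00801 and 0.0134, limma; without primed vehicle 3 Prkag2 had 0.0528), and 0 passed in vivo. Of 18 substrates and effectors 4 rose and 5 fell with priming, and 3 rose and 2 fell in vivo. Sgk1, a kinase downstream of mTORC2, rose with priming by 3.78 ± 0.64 and fell in vivo by -2.04 ± 0.64 (adjusted p = 0.00199 and 0.0309, limma). In vivo library 1 alone, in the 7 fibroblast-rich libraries, differed from vehicle in Sgk1 by -0.04. Eif4ebp1, the translation repressor that mTORC1 inactivates, fell in vivo by -1.54 ± 0.45 (adjusted p = 0.0244, limma), and Grb10, an mTORC1 substrate that dampens insulin signalling, rose with priming by 6.13 ± 1.66 (adjusted p = 0.0117, limma). None of the PI3K, AMPK, Rag or substrate genes passed in vitro in the fit of 12 libraries, where 1.76% of all genes were higher and 2.76% lower.

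Lists of the stress inputs that are known to induce sestrins and Ddit4 were read in the same way. Of 16 p53 targets, p53 itself (Trp53) included, 9 rose and 1 fell with priming (median 1.57), and 11 fell in vivo (median -1.58), the opposite of Sesn1. Plk2, a p53-induced kinase, stood at 12.74, 12.21 and 12.03 in the non-primed, 14.67, 14.98 and 15.17 in the primed vehicle, 13.16, 12.16 and 12.24 in the in vivo and 13.49, 13.67 and 14.13 in the in vitro libraries. Its differences were 2.61 ± 0.29 with priming and -2.42 ± 0.29 in vivo (adjusted p = 0.000589 and 0.00142, limma). Eda2r, a death receptor, had 4.58 ± 1.06 and -3.60 ± 1.06 (adjusted p = 0.00585 and 0.0245, limma). In vitro 0 of the 16 passed in the fit of 12 libraries. In the 7 fibroblast-rich libraries 10 fell and 1 rose, where 16.8% of all genes fell and 13.5% rose. There the median difference of in vivo library 1 alone was -0.65. Of 13 hypoxia genes 5 rose with priming and 5 fell in vivo, among them Egln3, an oxygen-sensing hydroxylase, at 3.60 ± 0.59 and -3.40 ± 0.59 (adjusted p = 0.00178 and 0.0038, limma). Adm, the peptide adrenomedullin, rose with priming by 2.64 ± 0.75 (adjusted p = 0.0145, limma; 0.0509 and 0.0556 without the library labelled non-primed 3 and primed vehicle 3), and Car9, a carbonic anhydrase, fell in vivo by -2.91 ± 0.90 (adjusted p = 0.0293, limma). Of 17 ATF4 targets 3 rose and 3 fell with priming and 1 rose and 5 fell in vivo. Slc7a11, the cystine transporter, rose with priming by 3.80 ± 0.89 and fell in vivo by -4.33 ± 0.89 (adjusted p = 0.00603 and 0.00699, limma). Cebpb, a partner factor of ATF4, rose with priming by 3.996 ± 0.84 and fell in vivo by -2.95 ± 0.84 (adjusted p = 0.00398 and 0.0221, limma). Slc7a5, the leucine transporter, was the ATF4 target that rose in vitro, by 1.46 ± 0.34 (adjusted p = 0.0437, limma), a call that ended with the omission of any library compared.

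Among 13 FOXO genes 3 rose and 4 fell with priming, and 3 rose and 3 fell in vivo. Trim63, a ubiquitin ligase of muscle atrophy, fell with priming by -6.48 ± 1.47 and Pdk4, which restrains pyruvate oxidation, rose by 5.20 ± 1.05 (adjusted p = 0.0053 and 0.00341, limma). Txnip, a FOXO and glucose responsive inhibitor of thioredoxin, rose in vivo with Sesn3, by 1.97 ± 0.31 (adjusted p = 0.00285, limma), while Pdk4 fell by -3.12 ± 1.05 (adjusted p = 0.0386, limma), a call that ended when any compared library but in vivo 1 was left out. Of 9 glucocorticoid targets 6 rose and 2 fell with priming, and 1 rose and 4 fell in vivo. Fkbp5, a chaperone of the glucocorticoid receptor, was the gene that rose in vivo, by 2.37 ± 0.40 (adjusted p = 0.0036, limma). Errfi1, a feedback inhibitor of EGF receptors, rose with priming by 2.96 ± 0.46 and fell in vivo by -2.48 ± 0.46 (adjusted p = 0.00158 and 0.00512, limma). Dusp1, a MAP kinase phosphatase, rose with priming by 2.77 ± 0.53 (adjusted p = 0.0029, limma). Without in vivo library 2 or 3 the in vivo calls of Prr5l, Akt1s1, Castor1, Kptn, Fnip2, Sgk1, Eif4ebp1, Cebpb, Eda2r, Pdk4 and Car9 ended, and of the named in vivo calls Plk2 alone passed in each of 17 alternatives. In vivo library 1 against vehicle, in the 7 fibroblast-rich libraries, gave smaller differences for Cebpb (-0.68), Pdk4 (-0.76), Eda2r (-1.29), Castor1 (-0.91) and Ddit4l (-1.34). Egln3 (-2.28), Errfi1 (-1.47), Car9 (-0.96), Kptn (0.47), Fnip2 (-0.54), Prr5l (-0.44) and Akt1s1 (-0.11) were smaller as well. That library is a group of 1, so no call is read from it. The melanocyte, fibroblast, macrophage and proliferation marker means given above move with the priming and in vivo comparisons of all 12 lists. Their part in these counts was not tested.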

How the data were processed

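The 12 libraries were made with a stranded mRNA kit, per the labels' protocols. The submitters' processing notes name cutadapt (1.18), STAR (2.6.1c), Subread (1.6.1) with featureCounts, DESeq2 (1.24.0) and the build GRCm38, while settings, strand and blind options are unstated. The deposited values are log2 values, the authors' regularized log (rlog), from -2.24 to 20.55, which shrink differences of weakly expressed genes. They hold no counts, so depth is unknown. All 55413 identifiers matched a symbol in a table of Ensembl gene names, and coordinates come from GENCODE M21. Genes with a mean rlog of at least 3 were tested (16459) with limma 3.58.1 in R 4.3.3, 1 mean per group over all 12 libraries, a variance trend, two-sided p-values and Benjamini-Hochberg adjustment over all tested genes, called under 0.05. The procedure was checked on simulated data, drawn as independent normal values with a common SD for all genes and groups. That check does not cover a group of mixed libraries such as the in vivo group. Members and lists were chosen with earlier results of these data known. Of each list, up to 2 called genes with the largest difference per comparison are named, except for 1 result that is not reported here, and all 10 members are. Alternatives changed the filter, variance model, scaling, array weights, replicate block and libraries fitted. The fits of the 7 fibroblast-rich and of the 5 melanocyte-rich libraries were chosen after seeing the data, and in the former in vivo library 1 is a group of 1 that is assumed to vary like the other groups. Promoter windows come from RefSeq and exist for 9 of 10 members.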

Additional observations from a re-analysis of the deposited data

How the results depend on the processing

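Of the members' differences under the alternatives, 689 kept direction and side of the threshold, 40 newly passed, 45 no longer passed and 46 changed sign. Members called with each library left out in turn numbered 4 to 4 with priming, 2 to 8 in vivo, 0 to 2 in vitro, 0 to 5 for in vitro against in vivo, 0 to 3 for in vivo against non-primed and 4 to 8 by the F test (7 with all). The shares of all genes called, in the same order, were 40.7% to 48.9%, 14.8% to 60.5%, 0.0729% to 2.23%, 0% to 49.1% and 0% to 17.1%. For the F test the share was computed with all libraries only (58.1%). Array weights gave 6 calls in vitro, 8 for in vitro against in vivo and 6 for in vivo against non-primed, where 38.4%, 74.4% and 39.9% of all genes were called. Fitting only the libraries compared gave 3 in vivo and 5 in vitro (24% and 30.3% of all genes). The 7 fibroblast-rich libraries gave 5 in vitro (30.3% of all genes). For in vitro minus vehicle this nearly repeats the fit of the libraries compared, since in vivo library 1, a group of 1, adds no measured spread. No filter on low values gave 4 by the F test. The replicate block left 1 call in vitro (1.05% of all genes), where numbers did not pair the libraries (4 of 18 same-numbered pairs correlated over 0.1, and 3 of 12 libraries correlated best with their own number). Signs turned as follows, and the cause was not tested. Every value given without the melanocyte-rich libraries and in the 7 fibroblast-rich libraries has in vivo library 1 as its only in vivo library. For priming, Tsc2 was 0.080 with array weights, -0.17 to 0.089 with a library left out. There Mtor was 0.0091 with array weights, -0.21 to 0.012 with a library left out. For in vivo minus vehicle, Sesn2 was 0.22 without the melanocyte-rich libraries and in the 7 fibroblast-rich libraries. There Ddit4 was 0.18 with median centring, 0.035 with quantile normalization, 1.36 without the melanocyte-rich libraries and in the 7 fibroblast-rich libraries, -0.69 to 0.35 with a library left out. For in vitro minus vehicle, Sesn2 was -0.077 to 0.31 with a library left out. There Tsc1 was 6e-04 with median centring. There Rptor was -0.0058 to 0.13 with a library left out. There Rictor was -0.039 to 0.12 with a library left out. For in vitro minus in vivo, Sesn1 was 0.029 without the melanocyte-rich libraries and in the 7 fibroblast-rich libraries. There Sesn2 was -0.096 without the melanocyte-rich libraries and in the 7 fibroblast-rich libraries. There Ddit4 was -0.17 without the melanocyte-rich libraries and in the 7 fibroblast-rich libraries. There Tsc2 was -0.077 with median centring, -0.085 with quantile normalization, -0.026 without the melanocyte-rich libraries and in the 7 fibroblast-rich libraries, -0.021 to 0.064 with a library left out. There Rptor was 0.027 without the melanocyte-rich libraries and in the 7 fibroblast-rich libraries, -0.065 to 0.017 with a library left out. For in vivo minus non-primed, Sesn1 was -0.16 to 0.27 with a library left out. There Sesn2 was 0.041 with median centring, -0.45 to 0.22 with a library left out. There Ddit4 was -0.026 with array weights, -0.039 without in vivo 1 and in the 5 melanocyte-rich libraries, -0.039 to 1.00 with a library left out. Over all genes, in vivo calls moved from 6531 to 12582 with array weights, 3950 with the libraries compared and 2435 to 9962 with a library left out. In vitro calls moved from 743 (4.51% of 16459 genes) to 6326 with array weights, 4983 with the libraries compared and 173 with the replicate block. They numbered 1180 with no filter (3.25% of 36277 genes) and 470 with a mean of at least 5 (3.43% of 13687). They numbered 1155 with quantile normalization, 4989 in the 7 and 12 to 367 with a library left out. For in vitro against in vivo 0 became 12243 with array weights, 8085 without in vivo 1 and 1 with no filter, and for in vivo against non-primed 0 became 6563, 2812 without the library labelled non-primed 3 and 2 with quantile normalization. Quantile normalization moved the median of all genes from 0.05 to -0.24 with priming and from -0.05 to 0.19 in vivo, and called 40.4% rather than 55.7% of priming calls higher. A fit of priming without melanocyte-rich libraries could not be run, since every non-primed library was one. Depth is unknown.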
